A study of Mus musculus with 96 samples.

Results

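A switch from a high-fat to a ketogenic diet was examined in gastrocnemius, the large calf muscle of the mouse hindlimb, by comparing the libraries labelled KDI with those labelled HFD. The comparison used 14 of the 96 libraries of the series, 7 KDI and 7 HFD, and 15444 of the 20940 genes in the muscle files. A gene was kept when its deposited log2 value was at least log2 of 10 (3.32) in at least 6 of the 14 libraries.

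All animals were singly housed male C57BL/6J mice that began their diets at 12 weeks of age and gave tissue at 26 weeks. KDI mice ate a lard-based diet with 60% of energy from fat until 18 weeks and then a cocoa butter-based ketogenic diet with 90% of energy from fat, whereas HFD mice kept the 60% fat diet throughout. Both groups had therefore been fed the obesogenic diet, and neither had a running wheel. The fat source changed along with the fat content, so the effects of these cannot be told apart. Of the other muscle groups, KDI_EX mice (6 libraries) had the KDI diets and a wheel from 18 weeks, EX mice (7) had the HFD diet and a wheel from 18 weeks, KD mice (7) ate the ketogenic diet from 12 weeks, SD mice (8) ate a standard diet with 10% of energy from fat, and DR mice (7) went from the 60% fat diet to the standard diet at 18 weeks. The labels tie no library to an animal, so p-values measure the spread between libraries.

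A ketogenic diet supplies little carbohydrate, so the liver makes ketone bodies from fatty acids and muscle can burn both. In muscle, fatty acids act on nuclear receptors of the PPAR family, which raise transcription of genes for fatty acid uptake, activation and oxidation. The aryl hydrocarbon receptor is a separate ligand-activated transcription factor. It pairs with its partner Arnt, binds xenobiotic response elements and induces Cyp1a1, a cytochrome P450 enzyme. Acute-phase proteins such as serum amyloid A and haptoglobin are secreted under inflammation and are also made by adipose tissue in obesity.

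The deposited values were 1 log2 value per gene and library, without counts, so the depth is unknown. Medians over genes ran from 6.93 to 7.16 over the 14 libraries. Skeletal muscle markers were high in each of them: the actin gene Acta1 lay between 19.06 and 19.41, the fast myosin gene Myh4 between 19.48 and 20.32 and the creatine kinase gene Ckm between 18.50 and 19.03. Adipocyte markers were present too, with Adipoq at a mean of 10.90 in KDI and 11.11 in HFD. The mean centred score over the 17 adipocyte markers that passed the filter overlapped between groups, from -0.36 to 0.80 in KDI and from -0.66 to 0.85 in HFD. KDI replicate 7 stood apart in markers of blood cells, with a neutrophil marker score of 3.82 against at most 0.24 in the other KDI libraries and 0.33 in the HFD libraries.

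Few genes of gastrocnemius were called between KDI and HFD, which does not show that few transcripts changed. limma called 5 of 15444 genes at an adjusted p under 0.05 (0.0324%). Cyp1a1, the muscle fructose bisphosphatase gene Fbp2 and the cardiac actin gene Actc1 rose in KDI (3 genes, 0.0194%). The acute-phase gene Saa3 and the serotonin synthesis gene Tph2 fell (2 genes, 0.013%). Saa3 entered the test only through the HFD libraries, so its difference is partly fixed by that selection. At an unadjusted p under 0.05 there were 397 genes (2.57%), 240 higher (1.55%) and 157 lower (1.02%) in KDI, where 772 would be expected by chance. The log2 difference exceeded 0.5 in size for 70 genes (0.453%), and the quartiles over all genes tested were -0.05 and 0.06. The count of 5 was 3 without KDI replicate 2, 4 or 7 or HFD replicate 6 and 2 without HFD replicate 2. It was 2 when the 14 libraries were fitted alone, 19 with library quality weights and 17 with adipocyte and slow fibre scores as covariates. In these bulk samples, a changed number of cells of a type and a changed amount of RNA per cell cannot be told apart.

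The start regions of the 5 called genes are printed because these genes carry the result and differ in their promoter letters. Each line holds the 250 bases before the RefSeq start of the gene on GRCm38.p6, 5′ to 3′ on the gene's own strand. These starts can differ from the ends of the GENCODE gene spans given with each gene. Capitals mark the motif described after the lines.
Cyp1a1, chr9:57697363-57697612, plus strand: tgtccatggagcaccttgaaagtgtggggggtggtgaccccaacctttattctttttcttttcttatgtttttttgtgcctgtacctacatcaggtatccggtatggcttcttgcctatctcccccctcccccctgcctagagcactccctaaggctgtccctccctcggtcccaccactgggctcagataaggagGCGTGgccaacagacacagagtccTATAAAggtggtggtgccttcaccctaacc
Fbp2, chr13:62858401-62858650, minus strand: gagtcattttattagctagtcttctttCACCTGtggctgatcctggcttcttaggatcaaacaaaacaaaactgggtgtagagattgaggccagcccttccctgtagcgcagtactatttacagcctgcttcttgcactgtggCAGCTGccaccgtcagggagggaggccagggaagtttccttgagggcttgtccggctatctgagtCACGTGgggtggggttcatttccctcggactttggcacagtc
Actc1, chr2:114052876-114053125, minus strand: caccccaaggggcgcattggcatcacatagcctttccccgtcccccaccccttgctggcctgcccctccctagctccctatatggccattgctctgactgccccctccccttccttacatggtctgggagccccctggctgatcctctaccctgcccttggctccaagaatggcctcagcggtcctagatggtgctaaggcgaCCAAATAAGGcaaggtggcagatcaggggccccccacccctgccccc
Saa3, chr7:46715677-46715926, minus strand: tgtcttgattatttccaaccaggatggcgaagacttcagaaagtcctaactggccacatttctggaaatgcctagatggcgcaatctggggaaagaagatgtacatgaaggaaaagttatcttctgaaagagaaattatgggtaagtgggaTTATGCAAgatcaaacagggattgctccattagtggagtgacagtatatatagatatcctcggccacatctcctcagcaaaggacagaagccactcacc
Tph2, chr10:115185023-115185272, minus strand: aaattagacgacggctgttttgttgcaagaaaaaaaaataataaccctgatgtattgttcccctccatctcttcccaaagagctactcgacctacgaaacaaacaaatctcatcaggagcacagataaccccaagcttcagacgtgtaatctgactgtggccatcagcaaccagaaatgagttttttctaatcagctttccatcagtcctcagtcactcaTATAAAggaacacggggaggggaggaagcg
The motifs were searched on both strands. They were GCGTG for the aryl hydrocarbon receptor, the TATA box as TATAAA, a core of C/EBP factors as TTGCNNAA, the E-box as CANNTG and the CArG box of serum response factor by its name. The Cyp1a1 window held GCGTG, the letters searched for the aryl hydrocarbon receptor, at positions -54 to -50 from the start, and TATAAA at -30 to -25. The TATAAA of Cyp1a1 also lay inside a match to the CArG box. In the Fbp2 window, CANNTG, which myogenic factors among others bind, stood at 3 positions. Actc1 held a CArG box at -47 to -38. Saa3 held TTGCNNAA on the opposite strand at -99 to -92. Tph2 held TATAAA at -30 to -25. Over all 32851 RefSeq promoter windows of this length, GCGTG was found in 28.2%, TATAAA in 12.4%, TTGCNNAA in 9.56%, CANNTG in 66.2% and the CArG box in 1.47%. A match describes these letters and was not tested as a binding site.

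Cyp1a1 (chromosome 9, 57687928 to 57703824, GRCm38) encodes a cytochrome P450 that oxidises aromatic compounds. Its log2 value had a lowest, median and highest value of 6.95, 7.93 and 8.11 in KDI libraries, against 5.43, 5.47 and 5.76 in HFD libraries. The groups did not overlap, and the HFD values were tightly packed while KDI replicates 6 and 7 were the lowest of their group. The means were 7.69 ± 0.46 in KDI and 5.53 ± 0.11 in HFD (standard deviation, n = 7 each). The difference was 2.17 ± 0.25 on the log2 scale (standard error; 4.48-fold; adjusted p = 3.36e-07; exact permutation p = 0.000583, the smallest that 7 against 7 libraries allow). Among the 11 tested genes of the aryl hydrocarbon receptor pathway Cyp1a1 was the only called gene, and the list median was 0.02. The receptor gene Ahr differed by 0.02 ± 0.15, and Tiparp, another target of the receptor, by 0.06 ± 0.08 (adjusted p = 1 for both). Cyp1b1, a related cytochrome P450 gene, had a difference of 0.40 ± 0.20 (adjusted p = 1).

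Fbp2 (chromosome 13, 62836877 to 62858422) encodes the muscle form of fructose bisphosphatase, which runs a glycolytic step backwards toward glycogen. Its lowest, median and highest values were 11.48, 11.62 and 12.07 in KDI, against 10.59, 11.04 and 11.17 in HFD. No KDI library reached down to the HFD range. The difference was 0.73 ± 0.13 (1.66-fold; adjusted p = 0.00938; exact permutation p = 0.000583), and the adjusted p was 0.0503 without HFD replicate 2. Fbp2 was the only called gene of 18 tested gluconeogenic and glycogen enzymes, 9 of which had positive differences (median 0.00). Of 16 glycolysis genes none was called and 6 were positive (median -0.02), with Hk2, the inducible muscle hexokinase, at -0.20 ± 0.15 (adjusted p = 1). The insulin-responsive glucose transporter gene Slc2a4 had -0.16 ± 0.08 (adjusted p = 1).

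Actc1 (chromosome 2, 114047282 to 114053548) encodes the alpha-actin of heart and of immature skeletal muscle. Its values ran from 10.74 over a median of 11.17 to 11.79 in KDI, against 9.92, 10.44 and 10.67 in HFD. The closest libraries were KDI replicate 3 and HFD replicate 7, and the ranges did not meet. The difference was 1.02 ± 0.20 (2.03-fold; adjusted p = 0.0262; exact permutation p = 0.000583). The call was lost without KDI replicate 2, 4 or 7 or HFD replicate 2, 4, 5 or 6 (adjusted p up to 0.125), and with the 14 libraries fitted alone (adjusted p = 0.0554). The sequence of Actc1 resembles that of Acta1, the skeletal alpha-actin gene, so some of its reads may be from Acta1, which averaged 19.23 in KDI and 19.22 in HFD (difference 0.00 ± 0.09, adjusted p = 1). In the list of 17 embryonic, cardiac and denervation-linked muscle genes, 6 were positive (median -0.06, and 0.04 without KDI replicate 2) and Actc1 alone was called. Nmrk2, a nicotinamide riboside kinase gene of muscle, had 0.41 ± 0.16 (adjusted p = 1).

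Saa3 (chromosome 7, 46711998 to 46715700) encodes a serum amyloid A made outside the liver. Its values were 2.28, 2.37 and 2.46 (lowest, median, highest) in KDI, against 2.49, 3.71 and 4.5 in HFD. All KDI libraries lay below log2 of 10, and the 6 HFD libraries above it carried the gene through the filter, so a difference was built into its selection. HFD replicate 5, at 2.49, sat beside the KDI libraries and the other HFD libraries stood clear of them. The difference was -1.29 ± 0.18 (0.409-fold). Since the filter chose the gene through HFD, its adjusted p of 2.21e-05 is no independent support. With no filter on low values the adjusted p was 3.42e-05, and with the 14 libraries fitted alone it was 0.0773. Since the KDI values are packed near the bottom of the scale, the size of this difference depends on how the authors' transform treats low values.

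Tph2 (chromosome 10, 115078641 to 115185022) encodes a tryptophan hydroxylase known from serotonin neurons. Its values were 3.44, 3.67 and 4.41 in KDI, against 3.70, 5.91 and 6.89 in HFD. The groups overlapped, because HFD replicates 5 and 7 (4.11 and 3.70) lay within the KDI range while the other 5 HFD libraries were at 5.79 or more. The difference was -1.71 ± 0.34 (0.306-fold; adjusted p = 0.0321; exact permutation p = 0.00816). The call was lost when any of KDI replicates 2, 3, 4, 5 and 7 or HFD replicates 1, 2, 3, 4 and 6 was left out, and when the 14 libraries were fitted alone (adjusted p = 0.682). It was also lost when low genes were kept in the fit (adjusted p = 0.0553) and without 3 muscle libraries of other groups that stood apart (adjusted p = 0.0571).

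Itgad, which encodes an integrin alpha subunit of macrophages and other leukocytes, divided the HFD libraries in the same way without passing the test. Its values were 3.07, 3.20 and 3.96 in KDI, against 3.06, 6.55 and 8.55 in HFD, and the difference of -2.45 ± 0.58 had an adjusted p of 0.219. It reached log2 of 10 in 2 KDI and 6 HFD libraries, so it entered the test largely through HFD, where it was high, and its adjusted p with no filter was 0.401. It was called with library quality weights (adjusted p = 0.0137), with marker scores as covariates (adjusted p = 0.0459) and without HFD replicate 5 or 7 (adjusted p = 0.0486 and 0.0142). HFD replicates 5 and 7 were again the 2 lowest of their group, at 3.68 and 3.06. Most other macrophage markers differed in the opposite direction. Of 20 tested markers 16 were positive, where 51% of all genes tested were, and none was called. Their median was 0.13, against 0.02 without HFD replicate 5 and 0.23 without HFD replicate 4. Among them was Itgax, the marker of lipid-laden macrophages, with -0.36 ± 0.20 (adjusted p = 1). The macrophage score ran from -0.24 to 0.39 in KDI and from -0.52 to 0.73 in HFD. HFD replicate 5 had the lowest adipocyte and macrophage scores of the 14 libraries (-0.66 and -0.52), and their part in the low Saa3, Tph2 and Itgad values was not tested. With adipocyte and slow fibre scores as covariates, Saa3 and Tph2 had differences of -1.25 and -1.66 (adjusted p = 6.45e-07 and 0.00605). The filter chose Saa3 through HFD, so its adjusted p is no independent support here either. No macrophage score was among these covariates.

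**Figure D1:**
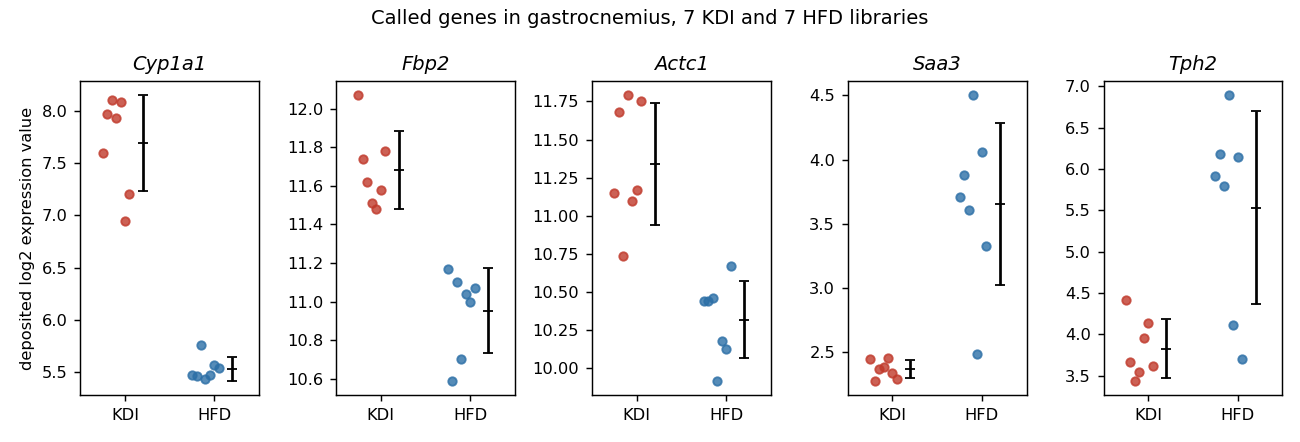
Deposited log2 expression value (vertical axes, which do not start at 0) of the 5 called genes in 7 KDI libraries (left) and 7 HFD libraries (right); each point is a library, and the bars give the mean and standard deviation. Cyp1a1, Fbp2, Actc1 and Saa3 show no overlap between groups, while 2 HFD libraries of Tph2 lie among the KDI libraries.

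**Figure D2:**
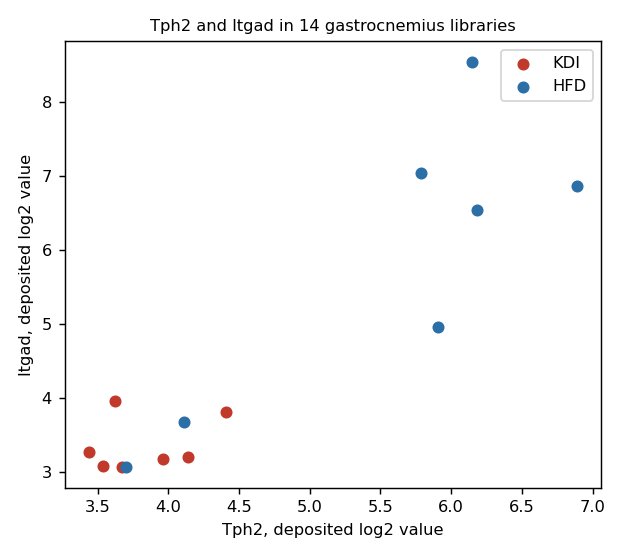
Tph2 (horizontal axis) against Itgad (vertical axis), both as deposited log2 values, in the 7 KDI and 7 HFD libraries, 1 point each. The HFD libraries with low Tph2 (3.70 and 4.11) also have low Itgad (3.06 and 3.68) and lie among the KDI libraries.

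Groups did not overlap for 8 of 15444 genes (0.0518%). A share of 0.000583 of the divisions of 14 libraries separates 7 from 7 fully by chance, which is no smaller. The lack of overlap, and the smallest exact permutation p that goes with it, is therefore no support by itself. All 7 KDI libraries lay above all 7 HFD libraries for 5 genes (0.0324% of those tested), namely Cyp1a1, Fbp2, Actc1, Maged2 and Fkbp11. They lay below for 3 genes (0.0194%), namely Saa3, Ppp1r7 and Gm32200, of which Saa3 had passed the filter only through HFD. Fkbp11, Ppp1r7 and Gm32200 were named after their values were seen. Maged2, a gene of the melanoma antigen family, had values from 9.39 to 9.70 in KDI and from 9.13 to 9.38 in HFD (difference 0.30 ± 0.08, adjusted p = 0.782). Fkbp11, a prolyl isomerase gene of the secretory pathway, differed by 0.26 ± 0.10 and Ppp1r7, a phosphatase regulator gene, by -0.06 ± 0.03 (adjusted p = 1 for both). Gm32200 had -0.47 ± 0.10 (adjusted p = 0.0718). It was called with library quality weights (adjusted p = 0.0137), with marker scores as covariates (adjusted p = 0.0159), without 3 libraries of other groups that stood apart (adjusted p = 0.0478) and without KDI replicate 6 (adjusted p = 0.0297).

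The genes next in order of p on the higher side did not pass. Zim1, an imprinted zinc finger gene, was nearest, with 7.53 to 8.32 in KDI against 7.07 to 7.89 in HFD (difference 0.59 ± 0.14, adjusted p = 0.154). It was called with library quality weights (0.76, adjusted p = 0.000198), with marker scores as covariates (adjusted p = 0.0116), and without KDI replicate 1 (adjusted p = 0.0368) or HFD replicate 4 (adjusted p = 0.0408). Kcnab1, a potassium channel beta subunit gene, had 0.43 ± 0.11 (adjusted p = 0.638). Prrt2, a proline-rich membrane protein gene, and the homeobox gene Hoxa4 had 0.45 ± 0.13 and 0.29 ± 0.09 (adjusted p = 0.998 and 1). Prrt2 reached log2 of 10 in 5 KDI libraries and 1 HFD library. It thus entered the test largely through KDI, where it was high, and its difference is partly fixed by that selection. Slc27a1, a fatty acid transport protein gene, spanned 11.58 to 12.07 in KDI and 11.36 to 11.71 in HFD (0.38 ± 0.11, adjusted p = 1). On the lower side, Foxo6os, annotated as antisense to Foxo6, had -0.52 ± 0.13 (adjusted p = 0.359, and 0.0198 with library quality weights). The library kit is not stated to mark the strand, so its reads and those of Foxo6 may not be separable. Orm1, the acute-phase orosomucoid gene, had -1.09 ± 0.33, and Cdkn1a, a cell cycle inhibitor gene, had -0.59 ± 0.19 (adjusted p = 1 for both). Aldh1l1, a folate enzyme gene, Trabd2b, Jpt2 and the sodium pump subunit gene Atp1a4 had differences between -0.47 and -0.28 (adjusted p of 0.987 for Atp1a4 and 1 for the other 3). With marker scores as covariates Orm1, Trabd2b, Aldh1l1 and Jpt2 were called (adjusted p = 0.0116, 0.0208, 0.0385 and 0.0446).

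Genes of fatty acid use leaned to the positive side without an adjusted p under 0.05. Of 23 tested PPAR targets 20 had positive differences (median 0.17), where 51% of all genes tested were positive (median 0.00). The list median was 0.09 without KDI replicate 3. A total of 7 had an unadjusted p under 0.05, all higher in KDI, where 1.55% of all genes tested were. None passed over all genes. Vnn1, a pantetheinase gene, had values from 5.0 to 6.65 in KDI and from 4.62 to 5.55 in HFD (0.87 ± 0.26). Acot1 and Acot2, which encode thioesterases that release free fatty acids from acyl-CoA, had 0.86 ± 0.27 and 0.54 ± 0.19, with Acot1 at 7.90 to 9.71 in KDI and 7.65 to 8.17 in HFD. Ucp3, a mitochondrial carrier gene of muscle, had 0.33 ± 0.12, with 12.68 to 13.02 in KDI and 12.28 to 12.71 in HFD. Acadl, the long-chain acyl-CoA dehydrogenase gene, had 0.30 ± 0.13 and Mlycd, which encodes malonyl-CoA decarboxylase, 0.21 ± 0.09. Each of these genes had an adjusted p of 1. Vnn1 was called with library quality weights (1.14, adjusted p = 0.0137) and with marker scores as covariates (0.85, adjusted p = 0.000177), and Acot1 with the covariates (1.01, adjusted p = 0.00788). Pdk4, which encodes a kinase that restrains pyruvate oxidation, and Angptl4, a lipoprotein lipase inhibitor gene, had 0.24 ± 0.18 and 0.14 ± 0.22 (adjusted p = 1 for both).

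The remaining fuel lists had medians close to 0 and no called member. The shares of positive members below stand against 51% of all genes tested. Mitochondrial fatty acid oxidation had 23 of 26 positive (median 0.08, and 0.04 without KDI replicate 3), among them Eci2, an auxiliary isomerase gene, at 0.27 ± 0.09, and Cpt1b, the muscle carnitine palmitoyltransferase gene, at 0.12 ± 0.13. Acyl-CoA thioesterases had 6 of 10 positive (median 0.05, and 0.01 without KDI replicate 3). The 3 with an unadjusted p under 0.05 were Acot1, Acot2 and Acot4 (0.34 ± 0.12), all higher in KDI, where 1.55% of all genes tested were. Acot1 and Acot2 are also in the PPAR list, which shares Acadl, Mlycd and Cpt1b, among others, with the oxidation list. Of 12 ketone body genes 8 were positive (median 0.05, and 0.01 without HFD replicate 5). Both enzymes that muscle uses to burn ketone bodies had negative differences, Oxct1 at -0.21 ± 0.11 and Bdh1 at -0.48 ± 0.32. Bdh1 spanned 9.29 to 10.90 in KDI and 10.18 to 11.26 in HFD. Negative differences prevailed among pyruvate oxidation and tricarboxylic acid cycle genes (6 of 29 positive, median -0.03), nuclear respiratory chain subunits (9 of 47, median -0.04) and branched-chain amino acid breakdown (3 of 21, median -0.04). Leaving out single libraries moved these medians without turning any of them positive. The median of the pyruvate and tricarboxylic acid list was -0.002 without KDI replicate 6, that of the respiratory list -0.001 without HFD replicate 1 and that of the branched-chain list -0.02 without KDI replicate 4. At the other end, the pyruvate and branched-chain medians were -0.06 and -0.07 without KDI replicate 1. The respiratory median was -0.07 without HFD replicate 2. With 1 library left out, the positive members numbered 4 to 14, 2 to 22 and 0 to 5 in the pyruvate, respiratory and branched-chain lists. The branched-chain list held Bcat2, a branched-chain aminotransferase gene, at -0.17 ± 0.06, and Bckdhb, a subunit gene of the branched-chain keto acid dehydrogenase, at -0.17 ± 0.07. The adjusted p was 1 for each gene of this paragraph. Fasn and Scd1, the lipogenic enzyme genes, had -0.24 ± 0.30 and 0.31 ± 0.39, and Ppargc1a, a coactivator gene of mitochondrial growth, had -0.04 ± 0.27.

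Contractile gene lists varied more between libraries than between diets. All 12 slow fibre genes had negative differences (median -0.37), where 51% of all genes tested were positive, and none was called. Tnnc1, the slow troponin C gene, had -0.48 ± 0.62, and Myl3, a slow myosin light chain gene, had -0.48 ± 0.51 (adjusted p = 1 for both). The slow fibre score ran from -1.29 to 1.51 in KDI and from -0.96 to 1.09 in HFD, so the groups overlapped. The list median moved from -0.63 without KDI replicate 3 to -0.14 without KDI replicate 6. Of 13 fast fibre genes 2 were positive (median -0.09, and -0.04 without HFD replicate 6). In KDI_EX against EX, 1 of 12 slow and 11 of 13 fast fibre genes were positive. In KD against SD, 1 of 12 slow and 5 of 13 fast fibre genes were positive.

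In KDI against HFD, matrix and immune gene lists likewise held no called gene other than Saa3. Over all genes tested, 51% were positive and 1.55% were higher in KDI at an unadjusted p under 0.05. Of 35 collagen and matrix genes 30 were positive (median 0.21, and 0.14 without HFD replicate 5), with Col1a1, which encodes the main fibrillar collagen chain, at 0.45 ± 0.24, Col6a2 at 0.35 ± 0.18 and the laminin gene Lamb1, the 1 member with an unadjusted p under 0.05, at 0.30 ± 0.13 (adjusted p = 1 for each). Lamb1 was called with library quality weights (0.45, adjusted p = 0.0481). Col1a1 ran from 11.92 to 13.80 in KDI and from 11.80 to 12.89 in HFD. Without KDI replicate 7 its difference was 0.26. Of 19 cell cycle genes 17 were positive (median 0.11), and without KDI replicate 7 the median was 0.04. The 4 with an unadjusted p under 0.05 were Top2a (0.49), Cdk1 (0.40), Ccna2 (0.33) and Rrm2 (0.32), and without that library they had 0.20, 0.23, 0.11 and 0.10. The neutrophil marker gene S100a9 was at 12.25 in KDI replicate 7, against at most 5.03 in the other KDI and 4.65 in the HFD libraries. All 4 neutrophil markers tested were positive (median 0.45), against a median of 0.12 without this library. The neutrophil markers Ly6g and Cxcr2 did not reach the filter in any of the 14 libraries, and Camp, Ngp, Mmp8 and Retnlg reached it in 1 each. All 5 red blood cell markers had negative differences (median -0.63), and the median was -0.34 without HFD replicate 2 and -0.96 without KDI replicate 7, with scores from -1.56 to 1.64 in KDI and from -0.97 to 2.29 in HFD.

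Genes of acute-phase and secreted inflammatory proteins differed in both directions. Of 10 tested genes 4 were positive, where 51% of all genes tested were, and Saa3 was called. Their median was -0.30, against -0.19 without HFD replicate 4 and -0.16 with no filter on low values. A further 4 were lower in KDI at an unadjusted p under 0.05, where 1.02% of all genes tested were, and each had an adjusted p of 1. With marker scores as covariates Hp and Orm1 were called (adjusted p = 0.013 and 0.0116). Hp, the haptoglobin gene, had values of 10.51, 11.00 and 11.68 in KDI, against 9.99, 12.35 and 13.33 in HFD (-1.05 ± 0.41). Orm1 had 5.11, 5.58 and 6.81 in KDI against 5.88, 7.19 and 7.64 in HFD. Lrg1, a secreted leucine-rich glycoprotein gene, and Serpina3n, a secreted protease inhibitor gene, had -0.47 ± 0.19 and -0.63 ± 0.31. HFD replicate 5 was the lowest of its group for Hp, Lrg1, Serpina3n and Saa3. Lcn2, the lipocalin gene of neutrophils and adipocytes, had 0.72 ± 0.36 and was the 1 member higher at an unadjusted p; it reached 9.45 in KDI replicate 7 and its difference was 0.09 without that library. Serpina3n and Lcn2 were named after their values were seen. Adipocyte hormones showed no called difference, with Lep, the leptin gene, at -0.93 ± 0.49, Adipoq at -0.21 ± 0.39 and Cfd, the adipsin gene, at 0.74 ± 0.34 (adjusted p = 1 for each). Of the 17 adipocyte markers 7 were positive (median -0.06, and -0.16 without HFD replicate 5 or 0.03 without KDI replicate 1). One of them, the lipid droplet gene Cidec, was called with marker scores as covariates (-0.43, adjusted p = 0.0464) and was named after its values were seen. Cidec is itself part of the adipocyte score used as a covariate, so this call is no independent support.

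**Figure D3:**
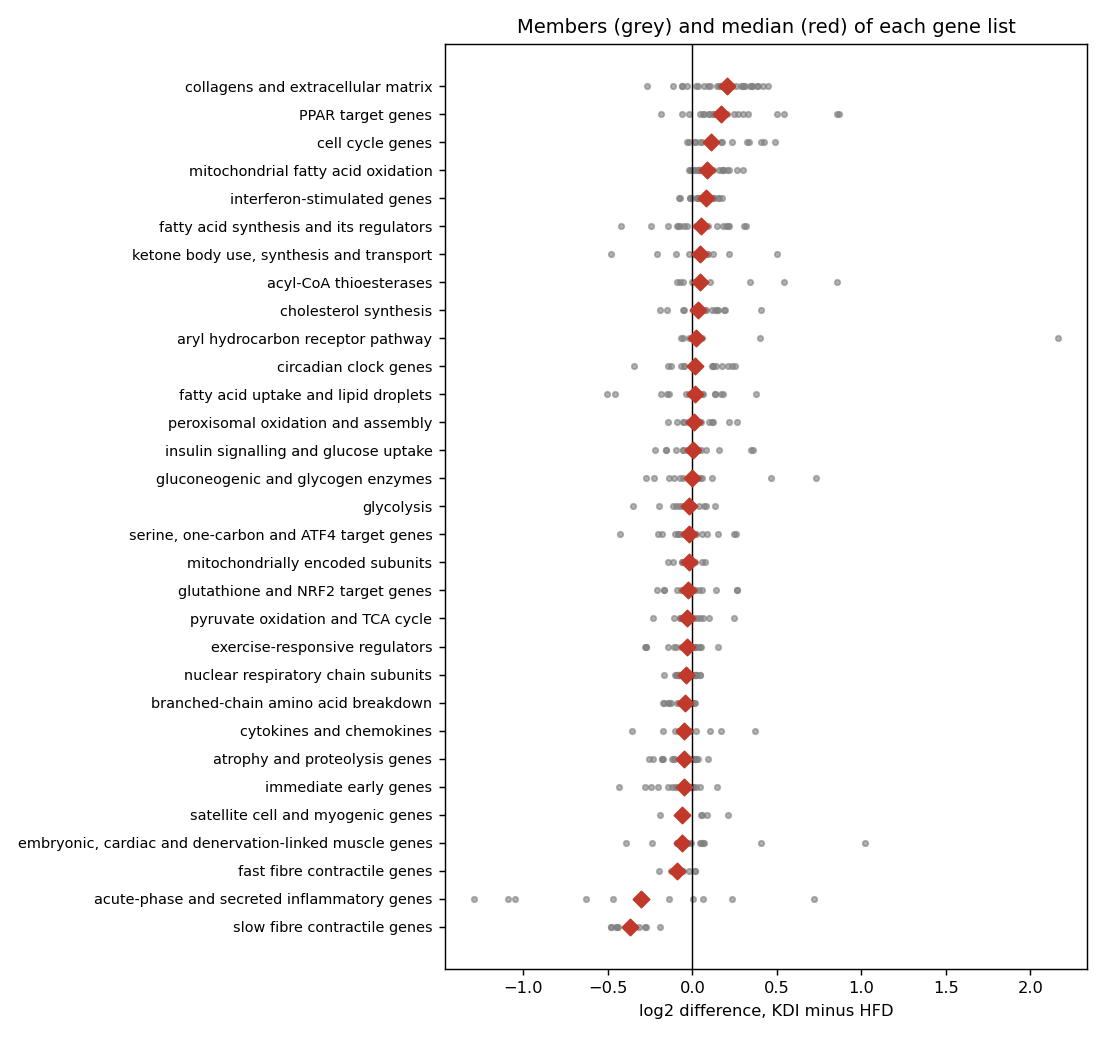
Log2 difference, KDI minus HFD (horizontal axis), of each tested member (grey points) and the median (red diamond) of 31 gene lists. The medians lie between -0.37 (slow fibre genes) and 0.21 (matrix genes), and Cyp1a1 (2.17) stands far from the other aryl hydrocarbon receptor genes.

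The same diet switch in mice with a wheel, KDI_EX against EX, used libraries that KDI against HFD did not use. It called 10 of 15444 genes (0.0648%), 8 higher (0.0518%) and 2 lower (0.013%), with 1080 at an unadjusted p under 0.05 (6.99%). Cyp1a1 rose by 2.15 ± 0.26, with means of 7.91 ± 0.89 in KDI_EX and 5.76 ± 0.17 in EX (n = 6 and 7; adjusted p = 1.38e-06). Fbp2 rose by 0.89 ± 0.14 and Actc1 by 1.62 ± 0.21 (adjusted p = 0.000406 and 5.6e-06). Hoxa4 (0.48 ± 0.09, adjusted p = 0.0126) and Kcnab1 (0.59 ± 0.12, adjusted p = 0.0261) were called there and not in KDI against HFD. The lower calls were Hp (-2.10 ± 0.43, adjusted p = 0.0264) and Foxo6os (-0.67 ± 0.14, adjusted p = 0.0261). Saa3 and Tph2 had -0.55 ± 0.18 and -1.28 ± 0.36 (adjusted p = 0.4 and 0.249). Saa3 lay at 2.32 ± 0.01 in KDI_EX and 2.87 ± 0.56 in EX, and Tph2 at 3.72 ± 0.13 in KDI_EX and 5.0 ± 1.03 in EX.

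Whether the wheel altered the diet effect was tested as KDI against HFD minus KDI_EX against EX. limma called 0 genes (0%), with 514 at an unadjusted p under 0.05 (3.33%), and 0 in each other setting tried. For Cyp1a1 the difference of effects was 0.02 ± 0.36 and for Fbp2 -0.16 ± 0.19. Actc1 had -0.60 ± 0.29 and Tph2 -0.43 ± 0.50. Saa3 had -0.74 ± 0.25 (unadjusted p = 0.00524), and the adjusted p was 1 for each of the 5. The filter chose Saa3 through HFD, which enters this contrast, so its p is no independent support. Saa3 lay near the bottom of the scale in both KDI and KDI_EX, so its value here rests mostly on HFD and EX.

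A ketogenic diet from the start was set against the standard diet by KD against SD, which also shares no library with KDI against HFD. It called 32 genes (0.207%), 11 higher (0.0712%) and 21 lower (0.136%), with 1592 at an unadjusted p under 0.05 (10.3%). Cyp1a1 rose by 1.97 ± 0.24 and Fbp2 by 0.92 ± 0.13 (adjusted p = 1.92e-06 and 4.94e-05; n = 7 and 8). Genes that had not passed in KDI against HFD were called here: Acot1 (1.31 ± 0.26, adjusted p = 0.00859), Hoxa4 (0.49 ± 0.09, adjusted p = 0.00153), Slc27a1 (0.50 ± 0.11, adjusted p = 0.0256), Acadl (0.55 ± 0.12, adjusted p = 0.0281) and Eci2 (0.37 ± 0.08, adjusted p = 0.0312) rose. Oxct1 (-0.68 ± 0.10, adjusted p = 0.000196), Bcat2 (-0.37 ± 0.06, adjusted p = 0.0004), Bckdhb (-0.34 ± 0.06, adjusted p = 0.00538), Slc2a4 (-0.43 ± 0.08, adjusted p = 0.00628), Fasn (-1.37 ± 0.29, adjusted p = 0.0186) and Aldh1l1 (-0.63 ± 0.13, adjusted p = 0.0186) fell. Actc1, Saa3 and Tph2 had 0.32 ± 0.19, -0.15 ± 0.17 and -0.27 ± 0.33 (adjusted p = 0.545, 0.744 and 0.775). Whether these differences differ between the diet regimens was not tested.

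**Figure D4:**
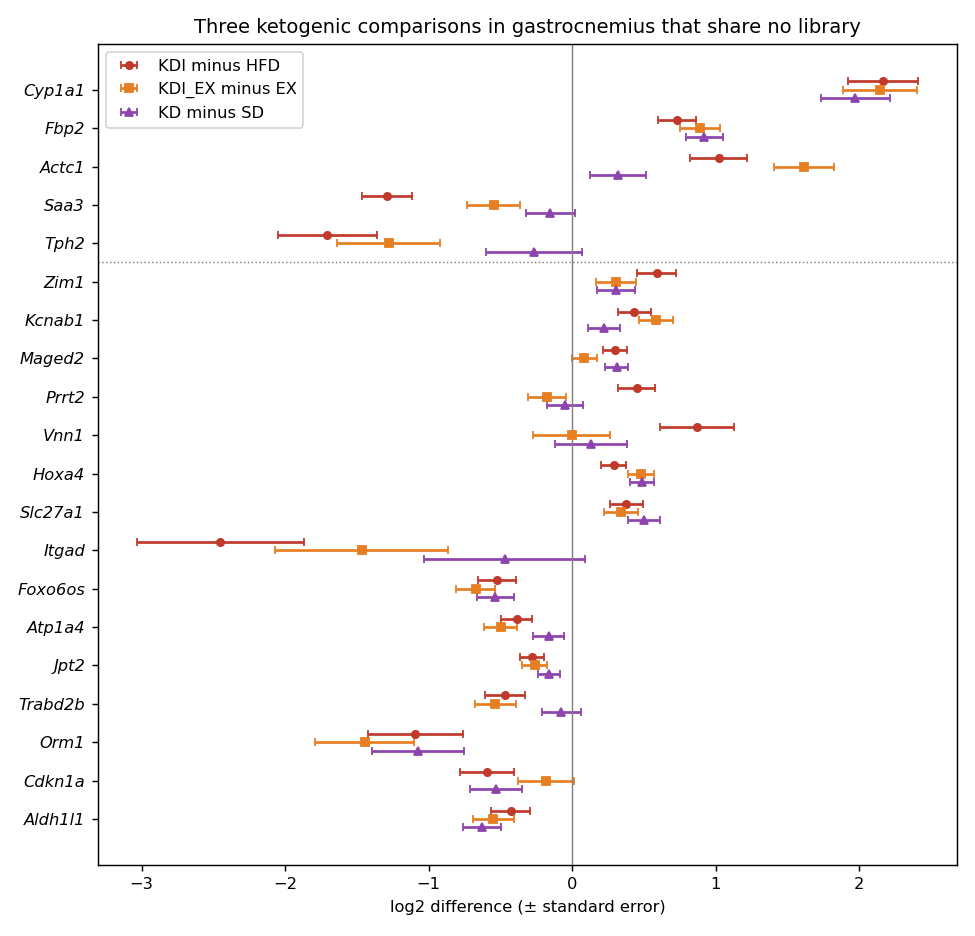
Log2 difference with its standard error (horizontal axis) for the 5 called genes (above the dotted line) and 15 of those next in order of p, in KDI minus HFD, KDI_EX minus EX and KD minus SD. Placeholder symbols were left out. Cyp1a1 (2.17, 2.15 and 1.97) and Fbp2 (0.73, 0.89 and 0.92) lie close together in all 3, while Saa3 and Tph2 lie nearest to 0 in KD minus SD.

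Across genes, log2 differences of KDI against HFD had a Pearson correlation of 0.21 with KDI_EX against EX and of 0.39 with KD against SD, over 15444 genes that are not independent of each other. Signs matched for 49.3% and 58.3% of all genes. Over all genes tested, 50.3% were higher in KDI_EX than in EX and 47.8% in KD than in SD. Of the 240 genes higher in KDI at an unadjusted p under 0.05, 66.2% and 73.3% were also higher in these comparisons. Of the 157 lower genes, 75.8% were lower in KDI_EX than in EX and 79.6% in KD than in SD. Matrix genes did not keep their sign in runners, with 3 of 35 positive in KDI_EX against EX (median -0.20) and 33 of 35 in KD against SD (median 0.29). This was not particular to matrix genes. In KDI_EX against EX, 0 of 20 macrophage, 0 of 8 tendon, 1 of 11 fibroblast and 1 of 17 adipocyte markers were positive. Skeletal muscle markers (11 of 12) and Schwann cell markers (18 of 18) were mostly or all positive there. KDI_EX replicates 3 and 6 were among the muscle libraries that stood apart. PPAR targets had 13 of 23 positive in KDI_EX against EX (median 0.02) and 18 of 23 in KD against SD (median 0.14).

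KDI was also compared with DR, the other diet change after obesity, which shares the KDI libraries with KDI against HFD. It called 8 genes (0.0518%), 7 higher (0.0453%) and 1 lower (0.00648%), with 1155 at an unadjusted p under 0.05 (7.48%). Cyp1a1 rose by 1.89 ± 0.25 and Fbp2 by 0.99 ± 0.13 (adjusted p = 1.41e-05 and 2.04e-05; n = 7 each). Acot1 rose by 1.42 ± 0.27 (adjusted p = 0.0112), Slc27a1 by 0.59 ± 0.11 and Eci2 by 0.45 ± 0.09 (adjusted p = 0.0119 for both), and Cat, the catalase gene, by 0.49 ± 0.10 (adjusted p = 0.017). The lower gene was Ttc25 (-0.69, adjusted p = 0.017), named after its values were seen. Saa3 and Tph2 had 0.02 ± 0.18 and 0.10 ± 0.35 (adjusted p = 0.99 and 0.956). Both genes were thus low after either diet change, with Saa3 at 2.37 ± 0.07 in KDI and 2.35 ± 0.08 in DR, against 3.66 ± 0.63 in HFD, and Tph2 at 3.82 ± 0.35 in KDI and 3.73 ± 0.17 in DR, against 5.53 ± 1.17 in HFD. Actc1 had 0.57 ± 0.20 (adjusted p = 0.533).

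Over the 7 muscle groups, Cyp1a1 averaged 7.69 in KDI, 7.91 in KDI_EX and 8.17 in KD, against 5.53 in HFD, 5.76 in EX, 6.20 in SD and 5.80 in DR. Its lowest library on a ketogenic diet was at 6.84 in KDI_EX, and the highest of the others was at 7.12 in SD, so the ranges of KDI and KDI_EX overlapped that of SD. Fbp2 averaged 11.68, 11.59 and 11.78 in KDI, KDI_EX and KD, against 10.95, 10.70, 10.86 and 10.70 in HFD, EX, SD and DR. For Fbp2 the lowest ketogenic library was at 11.31 in KDI_EX and the highest other library at 11.38 in SD. Tph2 reached 5.50 in an SD library and 6.29 in EX, whereas no library of KDI, KDI_EX, KD or DR exceeded 4.41.

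**Figure D5:**
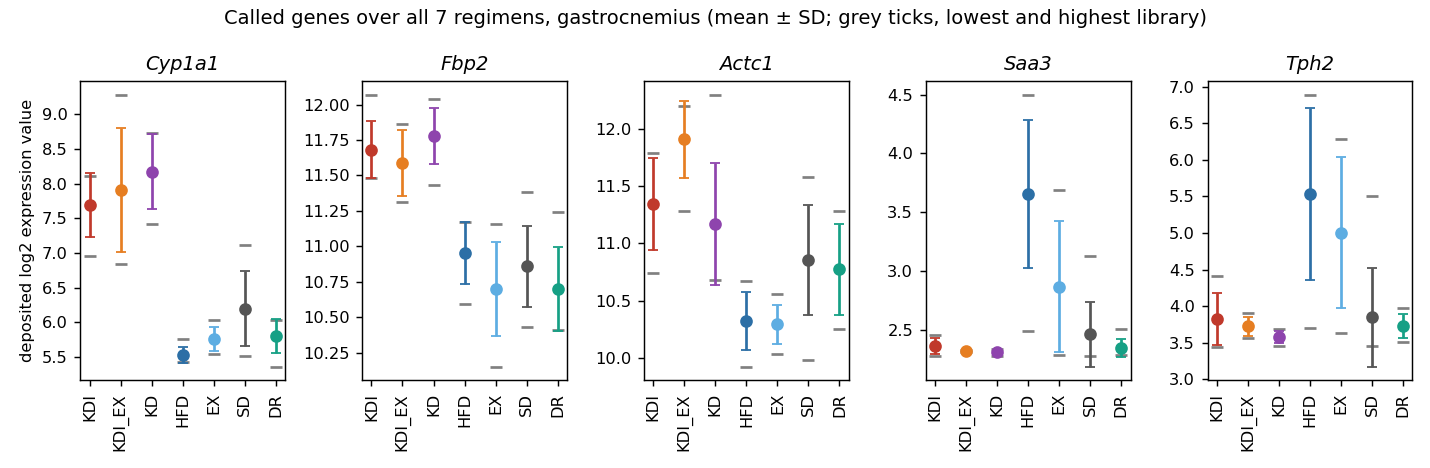
Deposited log2 value (vertical axes, which do not start at 0) of the 5 called genes in the 7 muscle groups; points are means, bars standard deviations and grey ticks the lowest and highest library (n = 7, with 6 in KDI_EX and 8 in SD). Cyp1a1 and Fbp2 are highest in KDI, KDI_EX and KD, and Saa3 and Tph2 are highest in HFD and EX.

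In sciatic nerve, from 7 KDI and 6 HFD libraries transformed apart from muscle, 4 of 16951 genes were called (0.0236%). Cyp1a1 averaged 5.96 ± 0.64 in KDI and 4.09 ± 0.07 in HFD nerve, and it rose by 1.87 ± 0.25 (adjusted p = 6.55e-05). Saa3 and Tph2 fell there too, with differences of -2.40 ± 0.47 and -2.80 ± 0.53 (adjusted p = 0.0386 and 0.0222). Fbp2 and Actc1 had differences of 0.26 ± 0.43 and 0.31 ± 0.62 in nerve (adjusted p = 1 for both). The difference between the tissues was not tested, and the labels do not say whether a mouse gave both tissues.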

How the data were processed

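Messenger RNA of gastrocnemius was sequenced in 49 libraries, of which 7 KDI and 7 HFD libraries make the comparison. Per the labels' protocols, a TRIzol extract went into a NEBNext Ultra library. The build was GRCm38, and the tools named, per the submitters' processing notes, were STAR 2.7.8a, RSEM 1.3.3, cutadapt 2.3, DESeq2, FastQC 0.11.8 and MultiQC 1.7. The authors deposited 1 log2 value per gene symbol and library, and the transform is not given in the sources used here. Its spread at low values resembles that of a regularised log, which would shrink differences of low genes by an unknown amount. Counts and depth are unknown, so no counting error is given.

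limma 3.58.1 in R 4.3.3 (with statmod 1.5.0) was fitted to all 49 muscle libraries in 7 groups with a trended, robust prior variance, after checking it on simulated data. Tests were two-sided and adjusted by Benjamini-Hochberg over 15444 genes, and a gene was called at an adjusted p under 0.05. Exact permutation tests over the 3432 divisions of 14 libraries were unadjusted and were run for 70 genes. Results of some named genes are not reported here. A ± gives the standard deviation on a level and the standard error on a difference. Scores are means of log2 values, each centred on its mean. Gene positions are from GENCODE on GRCm38, where 15176 of the 15444 symbols were found, and promoters from RefSeq. No copy of a library was found (highest Spearman correlation 0.9972 among the 14), and no batch is labelled. Nerve was fitted the same way on 47 libraries.

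The members, 31 gene lists and 12 marker lists were chosen with earlier results of these data known, and lists were given no test. Named genes were the called genes, the 8 in each direction with the smallest unadjusted p among the rest, a fixed set of fuel, hormone and receptor genes, and up to 4 members per list. Placeholder symbols such as Gm32200 were skipped when the 8 were taken. Genes named by none of these rules are stated as named after their values were seen.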

Additional observations from a re-analysis of the deposited data

Results flagged for a closer look

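KDI replicate 7 lay far from the other 6 KDI libraries in markers of blood cells and of dividing cells. S100a9 was at 12.25 there (next highest 5.03), Lcn2 at 9.45 (5.28), Csf3r at 6.08 (4.61), Top2a at 7.43 (5.87), Rrm2 at 6.73 (5.34), Ccna2 at 6.61 (5.37) and Cdk1 at 5.0 (4.12). Its neutrophil score was 3.82, its T and B cell score 1.27 and its cell cycle score 0.93. Other libraries that stood apart within their group were HFD replicate 3 for Cyp1a1 (5.76, next 5.56) and HFD replicate 6 for Gm32200 (6.64, next 6.38). Among the scores, KDI replicate 1 was high for fast fibre genes (0.21), HFD replicate 2 for immediate early genes (0.61), HFD replicate 1 for T and B cell markers (0.58), and HFD replicate 7 was low for endothelial markers (-0.60). In all, 16 of 226 groups of 7 values were picked out by the gap of 1 library to the next, where chance gives about 11.3.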

How the results depend on the processing

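No paired analysis was possible because no label numbers the replicates or ties a KDI library to an HFD library. Of 1540 values of single named genes under the alternatives 23 lost their call, 22 gained one, and 18 changed sign, all of the genes Acta1, Ahr and Ppargc1a, which differ by less than 0.05 in size and were never called. Of 946 list medians 1 moved beyond the spread between libraries, that of gluconeogenic and glycogen enzymes (-0.10 with library quality weights). Fitting only the libraries compared gave 2 called genes for KDI against HFD (both higher, 0 lower; 441 at an unadjusted p under 0.05), 2 for KDI_EX against EX, 104 for KD against SD and 3 for KDI against DR. No filter on low values left 1 lower gene. Library quality weights gave 19 (10 higher, 9 lower; 2617 at an unadjusted p under 0.05), 6, 254 and 232 for these comparisons. Marker scores as covariates gave 17 (7 higher, 10 lower), 5, 93 and 33. All 5 genes called in KDI against HFD remained called with weights and with covariates, and 2 when fitted alone. Quantile normalisation gave 5 for KDI_EX against EX. Without the 3 libraries that stand apart (DR replicate 1, KDI_EX replicates 3 and 6), KDI_EX against EX gave 30 and KD against SD 69. Leaving out each KDI or HFD library in turn gave 2 to 6 called genes, 1 to 4 higher and 1 to 3 lower. Over these alternatives the adjusted p ranged from 4.15e-09 to 8.92e-06 for Cyp1a1, 1.98e-08 to 0.0773 for Saa3, 0.00132 to 0.0503 for Fbp2, 0.00942 to 0.125 for Actc1 and 0.000745 to 0.682 for Tph2. The cause of these changes was not tested. Without counts, the precision that depth gives to low genes such as Saa3 is unknown.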

Other observations

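Several secreted and adipose-linked genes shared their lowest and their highest HFD library. Not all did, since Cfd was highest in HFD replicate 7 (12.07), where Orm1 and Tph2 were lowest (5.88 and 3.70). HFD replicate 5 had the lowest Hp (9.99), Lrg1 (8.61), Lep (8.87), Adipoq (9.44) and Oxtr (4.94) values of the HFD group, and HFD replicate 4 had the highest Hp (13.33), Lrg1 (10.05), Lep (12.01), Adipoq (12.04) and Oxtr (7.70) values. The KDI libraries spanned 10.51 to 11.68 for Hp, 9.10 to 11.11 for Lep and 4.56 to 6.63 for Oxtr, the oxytocin receptor gene, which had a difference of -1.26 ± 0.41 (adjusted p = 1).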
